A study of Mus musculus with 9 samples.

Results

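Kitl, Gja1, Gja4, Cdh1, Cdh2, Ctnnb1, Myo10, Daam1 and Fscn1 are 9 genes of the contact between cumulus cells and the oocyte, followed here in cumulus cells of wildtype, Bmp15-/- and DM mice. They were chosen by name, as genes of Kit ligand, of gap junctions and of transzonal projections and their adhesive contacts, and every probe set annotated to 1 of them alone was read on every array. They are 9 of the 18194 genes on the array, with 28 of its 45101 probe sets. Of the 9 genes, 8 passed the filter on low values with 26 probe sets, and Cdh1 did not. Kitl was lower in both mutants on all 4 of its probe sets. Myo10 fell in both mutants on 3 of its 4 probe sets. In DM, further falls were seen on part of the probe sets of Gja1, Cdh2, Ctnnb1, Daam1 and Fscn1.

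Cumulus cells are granulosa cells packed around the oocyte of an antral follicle. They send thin actin-rich filopodia, the transzonal projections, through the zona pellucida to the oocyte surface. At the tips, cadherins hold the membranes together and connexin channels pass small molecules. Kit ligand, made by granulosa cells, binds the receptor KIT on the oocyte. In the other direction the oocyte secretes BMP15 and GDF9, related growth factors of the TGF-beta superfamily, whose receptors on granulosa cells act through SMAD proteins.

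Each genotype was measured on 3 arrays, and each array came from its own pool of 75 to 100 cumulus-oocyte complexes of 3 to 4 mice, so the spread is that between independent pools. The Bmp15-/- mice lack BMP15, and DM (Bmp15-/-Gdf9+/-) mice lack BMP15 and keep 1 intact Gdf9 copy. All 3 groups were females aged 4 to 5 months of B6/129 background, given 5 IU of equine chorionic gonadotropin 48 hours earlier, and cells were taken from large antral follicles in medium with 5 µM milrinone, a phosphodiesterase inhibitor that holds oocytes in meiotic arrest. There was no group with the Gdf9 change alone, so the effect of the Gdf9 copy could be read only on the Bmp15-/- background. Lower RNA per cell and fewer cells of a type cannot be told apart in such bulk samples.

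RefSeq promoter windows (build GRCm38.p6) were found for 7 of the 9 genes, 10 windows of 250 bases that end just before an annotated transcription start. The stretches outside the gene's annotated span are shown for Kitl and Myo10, which were lower in both mutants, and for Gja1 and Fscn1, whose probe sets disagreed. All run 5′ to 3′ on the gene's strand, which is the plus strand in each. Capitals mark GTCT, the letters of a SMAD box, on either strand (AGAC) and GGCGCC, a GC-rich SMAD element that reads the same on both strands.
Kitl, chr10:100015571-100015614: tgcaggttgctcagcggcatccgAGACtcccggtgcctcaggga
Myo10, chr15:25622300-25622549: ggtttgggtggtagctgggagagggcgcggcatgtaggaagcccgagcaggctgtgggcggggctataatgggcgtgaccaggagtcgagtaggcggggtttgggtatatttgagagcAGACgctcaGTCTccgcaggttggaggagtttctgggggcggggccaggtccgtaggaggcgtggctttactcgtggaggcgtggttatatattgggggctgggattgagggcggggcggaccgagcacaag
Gja1, chr10:56377050-56377299: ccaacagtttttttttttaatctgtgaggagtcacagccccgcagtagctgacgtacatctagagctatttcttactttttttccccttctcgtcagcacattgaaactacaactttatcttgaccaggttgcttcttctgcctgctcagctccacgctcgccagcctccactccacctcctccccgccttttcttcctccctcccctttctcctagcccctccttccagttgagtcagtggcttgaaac
Fscn1, chr5:142960105-142960354: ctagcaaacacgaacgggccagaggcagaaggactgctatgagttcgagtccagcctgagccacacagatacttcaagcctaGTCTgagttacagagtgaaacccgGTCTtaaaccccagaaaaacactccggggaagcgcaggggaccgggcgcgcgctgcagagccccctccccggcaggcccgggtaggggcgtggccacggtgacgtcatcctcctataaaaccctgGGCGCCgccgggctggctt

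Over the whole 250 bases, of which the last 206 lie inside the annotated Kitl span, the Kitl window held 3 matches to GTCT, none to GGCGCC and 1 to TATAAA, the letters of a TATA box, searched on both strands. The Myo10 window above held 2 matches to GTCT and none to the other motifs. The Gja1 window held none of the 3 motifs. The Fscn1 window held 2 matches to GTCT, 1 to GGCGCC and 1 to TATAAA. No 2 matches overlapped in the members' windows. Among all 32851 windows of that length, 82.9% held GTCT at a median of 2 matches, 9.59% held GGCGCC and 12.4% held TATAAA, so a GTCT match is common and sets none of these genes apart. A match in letters is no measure of binding.

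Values are log2 expression values, on which a difference of 1 is a 2-fold change, and array medians lay between 5.52 and 5.59. Over all probe sets, arrays of 1 genotype correlated at r of 0.988 or more. A gene counted as rising or falling at a Benjamini-Hochberg adjusted p under 0.05 in limma over all 13447 genes tested, and a probe set at the same threshold over all 23735 probe sets tested. The targeted gene could be read only through oocyte RNA. On 1 Bmp15 probe set, wildtype arrays 1, 2 and 3 gave 5.10, 9.58 and 8.41, while all mutant arrays lay between 5.05 and 5.10, so wildtype array 1 was at the mutant level there. The oocyte marker Zp3 was also low on that array, at 4.86, where mutant arrays ran from 4.57 to 5.59. Gdf9, read by 1 probe set, ranged from 5.03 to 8.12 in wildtype, from 4.99 to 6.59 in Bmp15-/- and from 4.67 to 5.63 in DM. The granulosa and cumulus markers were present, with 9 of 10 tested.

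In Bmp15-/- against wildtype, 1 of the 8 member genes tested fell (Kitl) and none rose, beside 9.07% of all genes tested that were called, 5.78% as lower. The median log2 change of the 8 genes was -0.04, and that of all genes tested was -0.04 as well. By probe set, 6 of 26 fell and none rose, all of Kitl or Myo10, where 7.6% of all probe sets were called and 5.24% fell. The 3 Bmp15-/- arrays lay below the 3 wildtype arrays on 14 of the 26 probe sets, and 23.4% of all probe sets did so.

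In DM against wildtype, 3 of the 8 genes fell (Kitl, Cdh2 and Daam1) and none rose, beside 28.1% of all genes called, 18.2% as lower. Read by gene, the share of members called was therefore near that of all genes. The median log2 change of the 8 genes was -0.19, against -0.06 over all genes tested. By probe set, 14 of 26 fell and none rose, where 26.5% of all probe sets were called and 18.1% fell. Their median was -0.41, against -0.08 over all probe sets, and DM arrays lay below all wildtype arrays on 18 of them, as did 28.5% of all probe sets. Probe sets of 1 gene share its RNA and are not independent.

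**Figure D1:**
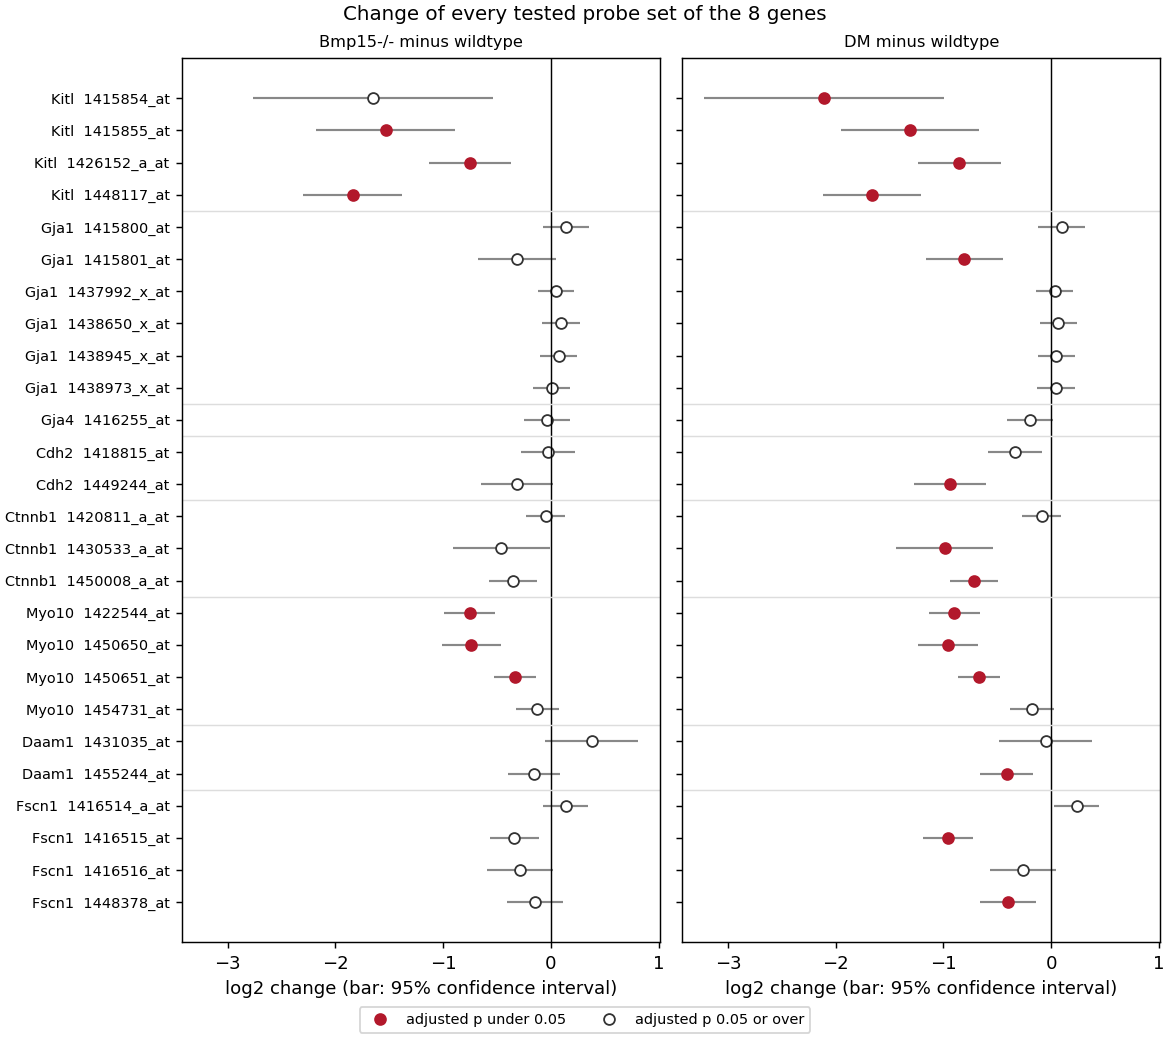
Log2 change of the 26 tested probe sets of the 8 genes in Bmp15-/- (left) and DM (right) against wildtype, with points at the limma estimate, bars for the 95% confidence interval and filled points for an adjusted p under 0.05 over all probe sets tested. All filled points lie below 0, 6 on the left and 14 on the right, and each gene with several probe sets other than Kitl has at least 1 that was not called in DM.

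Kitl encodes Kit ligand, the granulosa growth factor for the oocyte. On the probe set that represents the gene (1415855_at), wildtype arrays 1 to 3 gave 9.50, 9.68 and 9.63, Bmp15-/- arrays 8.22, 7.93 and 8.06, and DM arrays 8.54, 7.49 and 8.85. Every mutant array lay below every wildtype array, and DM arrays scattered more widely than the others. Kitl was 2.90-fold lower in Bmp15-/- (log2 change -1.54 ± 0.28 SE, 95% confidence interval -2.17 to -0.90, limma with Benjamini-Hochberg adjusted p = 0.0128). It was 2.48-fold lower in DM (log2 change -1.31 ± 0.28 SE, interval -1.95 to -0.67, limma adjusted p = 0.00848). DM and Bmp15-/- differed by 0.22 (interval -0.41 to 0.86, limma adjusted p = 0.71), which leaves room for a difference of either sign.

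Wildtype was highest on the other Kitl probe sets as well, while the lower mutant was Bmp15-/- on 1448117_at and DM on 1426152_a_at and 1415854_at. On 1448117_at wildtype arrays gave 8.32, 8.40 and 8.57, Bmp15-/- arrays 6.34, 6.73 and 6.70, and DM arrays 6.71, 6.36 and 7.23. Both mutants were clear of wildtype there, by at least 1.09. The log2 change was -1.84 in Bmp15-/- (limma adjusted p = 0.00173) and -1.66 in DM (limma adjusted p = 0.000641). On 1426152_a_at wildtype arrays gave 6.47, 6.30 and 6.50, Bmp15-/- arrays 5.72, 5.66 and 5.64, and DM arrays 5.87, 5.13 and 5.72. This probe set had the smallest Kitl changes, -0.75 in Bmp15-/- (limma adjusted p = 0.031) and -0.85 in DM (limma adjusted p = 0.00644). On 1415854_at wildtype arrays gave 9.20, 8.57 and 8.73, Bmp15-/- arrays 7.78, 7.01 and 6.76, and DM arrays 7.17, 5.42 and 7.58. Here the fall passed in DM (-2.11, limma adjusted p = 0.0133) and not in Bmp15-/- (-1.65, limma adjusted p = 0.0742), though no mutant array reached wildtype. Over the 9 arrays the Kitl probe sets correlated with each other at r of 0.84 to 0.95, as a description over arrays that include the genotype differences.

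**Figure D2:**
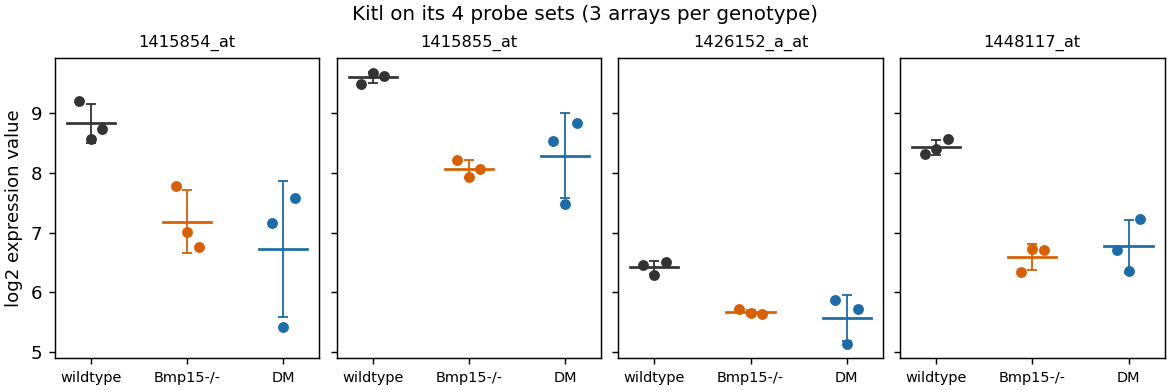
Log2 expression of Kitl on its 4 probe sets, one panel each, with a point per array, a long line at the mean and bars of 1 SD (n = 3 per genotype). All 6 mutant points lie below all 3 wildtype points in each panel, and the lowest DM point in each panel is DM array 2.

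DM array 2 was the lowest DM array on all 4 Kitl probe sets. Its 3′ actin control probe set also exceeded the 5′ one by the most, 2.12, where the other arrays lay between 1.85 and 1.92, and the part of RNA quality in its low Kitl was not tested. Without it Kitl was higher in DM than in Bmp15-/- by 0.63 (limma adjusted p = 0.0263) and lower than in wildtype by a log2 change of -0.91. Without wildtype array 1 the change of Kitl was -1.59 in Bmp15-/- (limma adjusted p = 0.0405) and -1.36 in DM (limma adjusted p = 0.0251). The fall of Kitl in Bmp15-/- no longer passed without wildtype array 2 (-1.50, limma adjusted p = 0.0533) or without Bmp15-/- array 3 (-1.53, limma adjusted p = 0.0504). In DM it passed in all 21 alternative settings. By probe set, the call of 1415855_at in Bmp15-/- was lost without any 1 of wildtype arrays 2 and 3 and Bmp15-/- arrays 2 and 3 (adjusted p up to 0.0623), that of 1426152_a_at without any 1 of the 6 arrays compared (up to 0.101), and that of 1415854_at in DM without wildtype array 1 (0.051). The fall on 1448117_at passed in all 19 settings in both mutants.

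The receptor and the enzymes that shed membrane-bound Kit ligand formed a list of 7 genes. Kit itself was under the filter on low values. Of the 5 tested, 1 fell in Bmp15-/- (Kitl) and 3 fell in DM (Kitl, Adam9 and Adam17), with none rising. The median log2 change of the list was -0.10 in Bmp15-/- and -0.36 in DM, against -0.04 and -0.06 over all genes tested. For this and the other pathway lists below, the share of all genes called was 9.07% in Bmp15-/- and 28.1% in DM. Over the 5 lists together, 6 of 70 tested genes were called in Bmp15-/- and 19 of 70 in DM, near those shares. Adam17, a sheddase that can release the extracellular part of Kit ligand, was at 11.41, 11.19 and 11.22 on wildtype arrays, 11.08, 10.98 and 11.08 on Bmp15-/- arrays and 11.04, 10.84 and 10.70 on DM arrays. Its log2 change was -0.41 ± 0.11 SE in DM (limma adjusted p = 0.0177) and -0.23 in Bmp15-/- (limma adjusted p = 0.211). The Adam17 call was lost without wildtype array 1 (adjusted p = 0.0693) or DM array 3 (0.052), and neither of its other 2 probe sets passed. On the Adam17 probe set of largest spread the change was 0, and with the mean of all 3 it was -0.23 (limma adjusted p = 0.107). Adam9, another membrane-bound metalloprotease, changed by -0.36 in DM (limma adjusted p = 0.0379), a call that held in 11 of 21 settings and that each wildtype array, Bmp15-/- array 1 and DM arrays 2 and 3 could end when left out (adjusted p from 0.0516 to 0.11).

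Gja1 encodes the main connexin of the channels between cumulus cells. On the probe set that represents it (1437992_x_at), wildtype arrays gave 13.99, 14.05 and 14.00, Bmp15-/- arrays 14.02, 14.11 and 14.05, and DM arrays 14.05, 14.07 and 14.02. The groups overlapped throughout. The log2 change was 0.05 in Bmp15-/- (interval -0.12 to 0.21, limma adjusted p = 0.724) and 0.03 in DM (interval -0.13 to 0.19, limma adjusted p = 0.779). The highest value of any probe set on any array was 14.53, so the readings lie near the top of the scale.

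Another 4 Gja1 probe sets behaved alike and 1 did not. The values of 1415800_at ran from 13.66 to 13.97, those of 1438650_x_at from 13.69 to 13.84, those of 1438945_x_at from 13.57 to 13.73 and those of 1438973_x_at from 12.68 to 12.81, and none of the 4 passed in either mutant. Names ending in _x_at mark probe sets that can bind related transcripts, so 4 of the 6 Gja1 readings are uncertain in that respect. On 1415801_at wildtype arrays gave 8.24, 8.15 and 8.32, Bmp15-/- arrays 8.23, 7.93 and 7.62, and DM arrays 7.60, 7.51 and 7.19. DM arrays lay below all others, and Bmp15-/- arrays ran from the wildtype level down to near that of DM. The log2 change there was -0.81 ± 0.16 SE in DM (limma adjusted p = 0.006375) and -0.31 in Bmp15-/- (limma adjusted p = 0.259), and the DM call held in all 19 settings.

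Gja4 encodes the connexin that forms the channel on the oocyte side of the contact. Its only probe set gave 5.89, 6.16 and 5.95 on wildtype arrays, 5.95, 6.05 and 5.89 on Bmp15-/- arrays and 5.80, 5.77 and 5.84 on DM arrays. DM arrays lay just below the other 6, by less than the range among wildtype arrays. The log2 change was -0.04 in Bmp15-/- (interval -0.25 to 0.17) and -0.20 in DM (interval -0.41 to 0.01, limma adjusted p = 0.137), so neither passed. Among connexins, pannexins and their scaffold proteins, 13 of 25 listed genes were tested. Panx1, a channel-forming relative of the connexins, fell in both mutants and was the only one of the 13 called in either.

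Panx1 gave 8.98, 8.91 and 9.18 on wildtype arrays, 8.46, 8.58 and 8.23 on Bmp15-/- arrays and 8.51, 8.44 and 8.22 on DM arrays. All mutant arrays were below all wildtype arrays. The log2 change was -0.60 in Bmp15-/- (limma adjusted p = 0.0203) and -0.63 in DM (limma adjusted p = 0.0055). The call in Bmp15-/- was lost without wildtype array 1 (adjusted p = 0.05685), wildtype array 3 (0.0735) or Bmp15-/- array 3 (0.0727), and the DM call held in all 21 settings. The median log2 change of the list was 0.11 in Bmp15-/- and 0.03 in DM.

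Cdh2 encodes N-cadherin, the adhesion molecule of granulosa cells. On the probe set that represents it (1418815_at), wildtype arrays gave 12.56, 12.53 and 12.58, Bmp15-/- arrays 12.47, 12.67 and 12.47, and DM arrays 12.29, 12.38 and 12.01. Bmp15-/- arrays straddled wildtype, and all 3 DM arrays were lower. The log2 change in DM was -0.33 ± 0.11 SE (limma adjusted p = 0.0467 over genes), while the same probe set missed the threshold in the fit over all probe sets (limma adjusted p = 0.053). That call held in 7 of 21 settings, and leaving out any 1 array other than DM array 2 raised the adjusted p to between 0.0501 and 0.122. On 1449244_at wildtype arrays gave 10.20, 10.30 and 10.17, Bmp15-/- arrays 9.88, 10.002 and 9.84, and DM arrays 9.42, 9.51 and 8.91. The groups did not overlap there, in the order wildtype, Bmp15-/- and DM. The fall passed in DM (-0.94 ± 0.15 SE, limma adjusted p = 0.00218, held in all 19 settings) and not in Bmp15-/- (-0.32, limma adjusted p = 0.221).

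Cdh1 encodes E-cadherin, which the oocyte carries at these contacts. Its probe set gave 3.84, 4.26 and 4.14 on wildtype arrays, 3.90, 4.89 and 4.03 on Bmp15-/- arrays and 4.14, 4.37 and 4.29 on DM arrays. No array exceeded the 40th percentile of its own values, so Cdh1 was not tested.

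**Figure D3:**
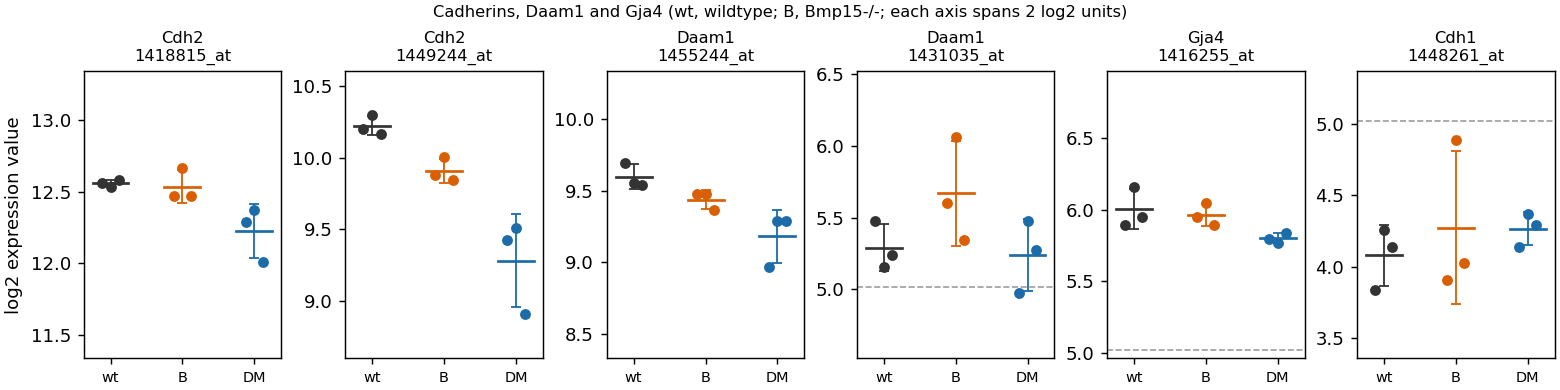
Log2 expression of Cdh2, Daam1, Gja4 and Cdh1 on 6 probe sets, with a point per array, a line at the mean and bars of 1 SD (n = 3 per genotype); each axis spans 2 log2 units and a dashed line marks the 40th percentile of all values, averaged over arrays, where it falls in range. DM points lie below wildtype for both Cdh2 probe sets, Daam1 1455244_at and Gja4, and all Cdh1 points lie below the dashed line.

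Ctnnb1 encodes beta-catenin, which links cadherins to the cytoskeleton and is also the effector of canonical WNT signalling. On the probe set that represents it (1420811_a_at), wildtype arrays gave 13.58, 13.63 and 13.71, Bmp15-/- arrays 13.65, 13.58 and 13.55, and DM arrays 13.51, 13.58 and 13.56. The spread within groups was as large as any shift, with log2 changes of -0.05 in Bmp15-/- and -0.09 in DM (limma adjusted p = 0.42). On 1450008_a_at wildtype arrays gave 9.61, 9.38 and 9.55, Bmp15-/- arrays 9.24, 9.20 and 9.04, and DM arrays 8.80, 8.88 and 8.72. The 3 groups stepped down without overlap. The fall there passed in DM (-0.71, limma adjusted p = 0.00119) and not in Bmp15-/- (-0.36, limma adjusted p = 0.0611). On 1430533_a_at wildtype arrays gave 7.13, 7.49 and 7.37, Bmp15-/- arrays 6.98, 6.77 and 6.86, and DM arrays 6.82, 6.28 and 5.92. Again only DM passed (-0.99, limma adjusted p = 0.00703, against -0.46 with limma adjusted p = 0.191 in Bmp15-/-), and both DM calls held in all 19 settings.

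Around Cdh2 and Ctnnb1, 16 of 19 listed cadherins, catenins and nectins were tested. In Bmp15-/- 1 rose (Vcl) and 2 fell (Ctnna2 and Nectin1), and in DM 2 rose (Ctnnd1 and Vcl) and 3 fell (Cdh2, Ctnna2 and Nectin1). The median log2 change was -0.02 in Bmp15-/- and 1e-04 in DM. Ctnna2, an alpha-catenin, was at 6.69, 6.33 and 6.33 on wildtype arrays, 5.13, 5.07 and 4.27 on Bmp15-/- arrays and 4.94, 5.07 and 5.13 on DM arrays. It had the largest fall of the list, -1.62 in Bmp15-/- (limma adjusted p = 0.00327) and -1.40 in DM (limma adjusted p = 0.00149), in all 21 settings. Its mutant values lay near or under the filter on low values, the 40th percentile of each array (4.97 to 5.05). The size of the Ctnna2 fall is therefore that of a signal at the level of the filter. Vcl, vinculin, which anchors actin at adhesions, was at 11.85, 11.59 and 11.87 on wildtype arrays, 12.26, 12.18 and 12.49 on Bmp15-/- arrays and 12.72, 12.45 and 12.78 on DM arrays. It rose by 0.54 in Bmp15-/- (limma adjusted p = 0.0317) and by 0.88 in DM (limma adjusted p = 0.00121), and the Bmp15-/- call was lost when any 1 of the 6 arrays compared was left out (adjusted p up to 0.112) and with the mean of all Vcl probe sets (0.29, adjusted p = 0.129). Nectin1, an adhesion molecule of adherens junctions, fell by 0.66 in Bmp15-/- (limma adjusted p = 0.013) and by 0.51 in DM (limma adjusted p = 0.0136), calls lost without wildtype array 3 (adjusted p = 0.0504 and 0.05285) and, in Bmp15-/-, without Bmp15-/- array 3 (0.0524). Ctnnd1, the p120 catenin that holds cadherins at the membrane, rose by 0.42 in DM (limma adjusted p = 0.0155), a call lost without wildtype array 2 (0.0606) or DM array 1 (0.0503).

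Of 14 listed genes of the beta-catenin pathway, 11 were tested. In Bmp15-/- 1 rose (Tcf7l2), in DM 3 rose (Lef1, Tcf7l2 and Rnf43), and none fell. The median log2 change of the list was 0.02 in Bmp15-/- and 0.12 in DM. Tcf7l2, a transcription factor that binds beta-catenin, was at 10.28, 10.04 and 10.11 on wildtype arrays, 10.85, 10.77 and 10.79 on Bmp15-/- arrays and 11.49, 10.79 and 11.25 on DM arrays. It rose by 1.03 in DM (limma adjusted p = 0.00168, held in all 21 settings) and by 0.66 in Bmp15-/- (limma adjusted p = 0.0349), where leaving out any 1 of the 6 arrays compared ended the call (adjusted p up to 0.114). Lef1, of the same factor family, rose by 0.38 in DM (limma adjusted p = 0.0204), and Rnf43, a ubiquitin ligase that removes WNT receptors, by 0.34 (limma adjusted p = 0.0279). The Lef1 call was lost without wildtype array 1 or 2 or DM array 3, and the Rnf43 call without wildtype array 2 or 3 or DM array 1 or 2 (adjusted p up to 0.0703 and 0.0995). Rnf43 lay near the filter on low values (4.97 to 5.05), with 5.06, 4.91 and 4.83 on wildtype arrays and 5.25, 5.35 and 5.23 on DM arrays. Wildtype arrays 2 and 3 were under it. With the mean of all its probe sets Lef1 changed by 0.09 in DM (limma adjusted p = 0.465), and Tcf7l2 in Bmp15-/- changed by 0.33 on its probe set of largest spread (limma adjusted p = 0.399) and by 0.35 with the mean (limma adjusted p = 0.0615).

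Myo10 encodes myosin X, a motor that travels to the tips of filopodia and promotes their growth. On 1422544_at wildtype arrays gave 7.14, 7.22 and 7.09, Bmp15-/- arrays 6.49, 6.44 and 6.27, and DM arrays 6.07, 6.34 and 6.34. Every mutant array was at least 0.60 below every wildtype array. The log2 change was -0.75 in Bmp15-/- (limma adjusted p = 0.00524) and -0.90 in DM (limma adjusted p = 0.000529). On 1450650_at wildtype arrays gave 6.80, 6.89 and 6.73, Bmp15-/- arrays 6.20, 6.08 and 5.94, and DM arrays 5.61, 6.03 and 5.92. It fell by much the same amounts, -0.74 in Bmp15-/- (limma adjusted p = 0.0102) and -0.96 in DM (limma adjusted p = 0.000826). The calls of both probe sets held in all 19 settings in both mutants.

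On the third Myo10 probe set, 1450651_at, wildtype arrays gave 5.60, 5.69 and 5.51, Bmp15-/- arrays 5.32, 5.26 and 5.22, and DM arrays 4.85, 4.97 and 4.98. The 3 groups were again apart. All 3 DM values lay under the 40th percentile of their own array, so the probe set passed the filter on low values through the other 6 arrays alone, and the size of its fall in DM is that of a signal at the level of the filter. The log2 change was -0.67 in DM (limma adjusted p = 0.00085), and -0.33 in Bmp15-/- with a limma adjusted p of 0.04999 that held in only 6 of 18 settings. Without any 1 of the 6 arrays compared or DM array 1 that call was lost (adjusted p up to 0.16). On 1454731_at, which represents the gene, wildtype arrays gave 13.12, 13.12 and 13.10, Bmp15-/- arrays 12.99, 13.04 and 12.93, and DM arrays 12.85, 12.87 and 13.08. Mutant arrays were all below wildtype there too, by little, and neither change passed (-0.12 in Bmp15-/-, limma adjusted p = 0.391, and -0.18 in DM, limma adjusted p = 0.1565). Read by gene, Myo10 was therefore not called in either mutant, although 3 of its 4 probe sets were.

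Daam1 encodes a formin that builds unbranched actin filaments downstream of Dishevelled. On 1455244_at, which represents it, wildtype arrays gave 9.70, 9.56 and 9.54, Bmp15-/- arrays 9.48, 9.48 and 9.36, and DM arrays 8.97, 9.29 and 9.29. The groups did not overlap, with Bmp15-/- in between. The fall passed in DM (-0.41 ± 0.11 SE, limma adjusted p = 0.0176) and not in Bmp15-/- (-0.16, limma adjusted p = 0.376). The DM call was lost without wildtype array 1 (-0.36, adjusted p = 0.068), and the mean of the gene's probe sets gave -0.15 (adjusted p = 0.218). In the fit over probe sets it was also lost without wildtype array 2 (0.0503) or DM array 1 (0.0569). On 1431035_at the arrays ran from 5.16 to 5.48 in wildtype, 5.34 to 6.07 in Bmp15-/- and 4.98 to 5.47 in DM, and neither change passed (0.38 and -0.05). The third Daam1 probe set, 1458662_at, lay between 4.05 and 4.59 and was under the filter on low values.

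Fscn1 encodes fascin, which bundles the actin filaments of filopodia, and its probe sets differed in the sign of their change. On 1416514_a_at, which represents it, wildtype arrays gave 12.78, 12.96 and 13.04, Bmp15-/- arrays 13.09, 12.99 and 13.12, and DM arrays 13.13, 13.17 and 13.20. DM arrays were all above wildtype, by 0.24 ± 0.09 SE on the log2 scale, which did not pass (limma adjusted p = 0.0751). On 1416515_at wildtype arrays gave 6.65, 6.74 and 6.93, Bmp15-/- arrays 6.56, 6.39 and 6.36, and DM arrays 5.76, 5.81 and 5.88. All DM arrays lay at least 0.48 below every Bmp15-/- array and further below wildtype. The change was -0.96 ± 0.10 SE in DM against wildtype (limma adjusted p = 0.00034, held in all 19 settings) and -0.34 in Bmp15-/- (limma adjusted p = 0.0754). On 1448378_at wildtype arrays gave 10.74, 10.76 and 10.71, Bmp15-/- arrays 10.65, 10.64 and 10.47, and DM arrays 10.17, 10.58 and 10.25. This fall of -0.40 in DM (limma adjusted p = 0.0309) held in 11 of 19 settings and was lost without any 1 wildtype array or DM array 1 or 3 (adjusted p up to 0.0964). The fourth probe set, 1416516_at, ran from 5.76 to 6.29 in wildtype, 5.66 to 5.83 in Bmp15-/- and 5.65 to 5.88 in DM and did not pass.

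Of 31 listed genes of filopodia and actin bundling, 25 were tested. None was called in Bmp15-/-, where limma found 2 of the 25 at an unadjusted p under 0.05, as it did 3553 of all 13447 genes. In DM 2 rose (Diaph2 and Msn) and 5 fell (Daam1, Daam2, Diaph3, Fmn1 and Enah), beside 28.1% of all genes called, 18.2% as lower. The median log2 change was 0.05, against -0.06 over all genes. Diaph2, a formin of the diaphanous family, was at 8.88, 8.77 and 8.79 on wildtype arrays, 8.84, 8.94 and 9.32 on Bmp15-/- arrays and 9.62, 9.64 and 9.78 on DM arrays. DM stood above both other groups, with a rise of 0.86 ± 0.12 SE over wildtype (limma adjusted p = 0.00114) and a rise over Bmp15-/- that also passed (limma adjusted p = 0.0274). Daam2, the closest relative of Daam1, was at 8.44, 8.34 and 7.97 on wildtype arrays, 7.20, 7.61 and 7.72 on Bmp15-/- arrays and 6.63, 7.34 and 7.34 on DM arrays. It fell by 1.14 in DM (limma adjusted p = 0.00466, held in all 21 settings) and missed the threshold in Bmp15-/- (-0.74, limma adjusted p = 0.0656). Diaph2 and Daam2 each had 1 other probe set, which changed in the same direction in DM and was not called. Diaph3 fell by 0.70 in DM (limma adjusted p = 0.0289), and Msn, moesin, which ties actin to the membrane, rose by 0.32 (limma adjusted p = 0.0309). Both calls were lost without any 1 wildtype array or DM array 1 or 3 (adjusted p up to 0.101 and 0.0941), and that of Msn also with the mean of its probe sets (0.24, adjusted p = 0.0619).

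Probe sets of Kitl, Gja1, Cdh2, Ctnnb1, Myo10 and Fscn1 thus disagreed in how far they moved, and the size of the disagreement was measured within each array. The gap between a probe set and the one that represents the gene was taken relative to the wildtype mean, and compared by a 2-sided exact permutation test, for which 3 arrays against 3 allow no p below 0.1. For Fscn1 1416515_at the gap lay between -0.07 and 0.04 in wildtype and between -1.22 and -1.17 in DM, a change of -1.20 (exact p = 0.1). For Gja1 1415801_at it changed by -0.84 in DM, from between -0.13 and 0.10 to between -1.05 and -0.68 (exact p = 0.1). In Bmp15-/- the same gaps changed by -0.475 for Fscn1 (exact p = 0.1) and -0.36 for Gja1 (exact p = 0.2). Both probe sets were chosen by their values, so a wide gap was partly given by the choice. The remaining Gja1 gaps changed by 0.01 to 0.07 in DM (exact p from 0.3 to 0.8). For Fscn1 1416516_at and 1448378_at the changes in DM were -0.50 (exact p = 0.2) and -0.64 (exact p = 0.1).

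For Kitl, whose probe sets were all lower in both mutants, the gap of 1426152_a_at changed by 0.78 in Bmp15-/- (exact p = 0.1) and 0.46 in DM (exact p = 0.3), and that of 1415854_at by -0.12 (exact p = 0.7) and -0.80 (exact p = 0.1). The Kitl changes of 0.78 and -0.80 were wider than those of Cdh2 1449244_at and Ctnnb1 1450008_a_at, given next.

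The gap of Myo10 1450650_at changed by -0.61 in Bmp15-/- and by -0.78 in DM. For Ctnnb1 1450008_a_at the changes were -0.31 and -0.62, and for Cdh2 1449244_at -0.29 and -0.61. In all 3 the arrays of either mutant lay outside the wildtype range (exact p = 0.1 in each comparison). All 3 probe sets had been called in DM on the same arrays, so their gaps are no separate result. The other Myo10 and Ctnnb1 gaps also had an exact p of 0.1 in each comparison. The gap of Daam1 1431035_at moved the other way, by 0.54 in Bmp15-/- and 0.36 in DM. The probe sets that represent Cdh2, Myo10, Fscn1, Ctnnb1 and Gja1, from which these gaps were taken, had means of 12.44, 13.01, 13.05, 13.59 and 14.04, between the 98.6th and the 99.97th percentile of all probe sets. The part of that high level in the gaps was not tested. The excess of the 3′ over the 5′ control probe set of Gapdh, a measure of how far the labelled RNA reaches towards the 5′ end, moved with genotype as well: it was 0.52 to 0.59 in wildtype, 0.66 to 0.73 in Bmp15-/- and 0.79 to 0.95 in DM. Its part in the disagreement was not tested, and where along the transcripts these probe sets lie was not analysed here.

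**Figure D4:**
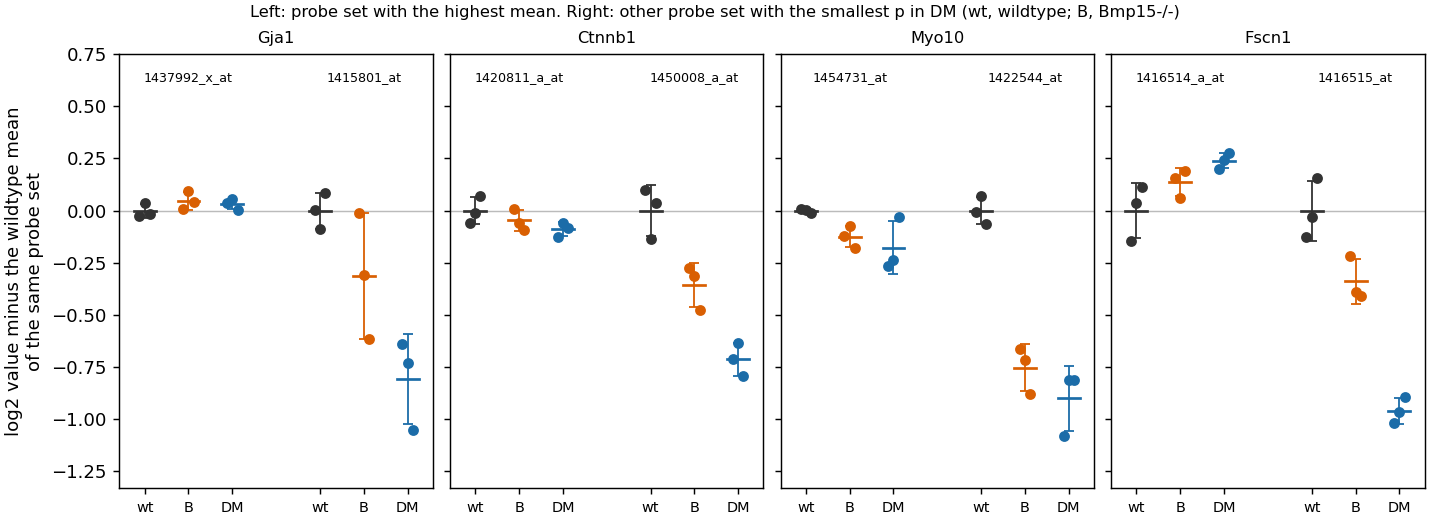
Log2 value minus the wildtype mean of the same probe set for Gja1, Ctnnb1, Myo10 and Fscn1, with the probe set that represents the gene on the left of each panel and, on the right, the other tested one with the smallest p in DM against wildtype, chosen by its values; points are arrays, lines are means and bars are 1 SD (n = 3 per genotype). In DM the right-hand probe sets lie between -1.08 and -0.64, while the left-hand ones lie between -0.26 and 0.27.

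Between DM and Bmp15-/-, which differ in the Gdf9 copy, none of the 8 member genes was called, beside 3.25% of all genes (1.61% as lower). Limma put 2 of the 8, Cdh2 and Daam1, under an unadjusted p of 0.05, as it did 2670 of all 13447 genes. For the 8 genes the median log2 change was -0.05, against -0.03 over all genes. By probe set, 1 of 26 was called, Fscn1 1416515_at, which fell by 0.62 ± 0.10 SE (limma adjusted p = 0.0195), where 2.37% of all probe sets were called and 1.2% fell. That call was lost without Bmp15-/- array 1 or 2 or DM array 1 (adjusted p up to 0.0723). Cdh2 1449244_at changed by about as much, -0.63, and did not pass (limma adjusted p = 0.0637). It passed in 3 of 19 settings: with a variance trend, with array weights and without DM array 2 (adjusted p = 0.0292 in the last). On 8 of the 26 probe sets all DM arrays lay below all Bmp15-/- arrays, as they did on 12.5% of all probe sets. The comparisons of the mutants with wildtype share the same wildtype arrays, so the falls in both are not independent.

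Genes whose pattern over the 9 arrays was most like that of a called member were taken by Pearson correlation, a description over arrays that include the genotype differences. For Kitl they were Smad7 (r = 0.98), an inhibitory SMAD that dampens TGF-beta superfamily signalling, Hmces (r = 0.97) and Ano1 (r = 0.96), a chloride channel. Smad7 fell by 1.13 in Bmp15-/- (limma adjusted p = 0.00735) and by 1.04 in DM (limma adjusted p = 0.0031). For Cdh2 they were Samd14, Igsf3 and Nrep (r = 0.97, 0.96 and 0.96), each lower in DM (limma adjusted p = 0.00936, 0.00935 and 0.0277) and none called in Bmp15-/-. For Daam1 they were Nup133, Cep192 and Pea15a (r = 0.97, 0.96 and 0.96), which were called in DM and not in Bmp15-/-. Since all these genes were chosen by their likeness to a called member, calls shared with it are no separate result.

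Markers of other cells were read beside these results. Each sum takes in every listed gene on the array, also those under the filter, which the counts of genes tested leave out. Oocyte markers, 14 of 17 tested, summed on the linear scale to 881 to 2287 in wildtype, 730 to 2203 in Bmp15-/- and 663 to 992 in DM, so the ranges overlapped. Of the 14, only Tle6 was called, as lower in both mutants (log2 change -0.65 in Bmp15-/- and -0.98 in DM). The mural granulosa list, 5 of 6 tested, summed to 2890 to 3246 in wildtype, 2305 to 2580 in Bmp15-/- and 2414 to 2594 in DM. That sum was carried by Npr2, the highest of the 5 (mean 11.25 in wildtype) and the only one that fell (log2 change -0.49 in Bmp15-/- and -0.46 in DM). The sum therefore mostly follows 1 gene and is no measure of mural cell content. Whether Npr2 sets mural cells apart from cumulus cells was not tested. The median log2 change of the list was 0.36 in Bmp15-/- and 0.30 in DM, and Cd34 rose by 1.27 in DM (limma adjusted p = 0.000876). The granulosa and cumulus list summed to 36115 to 37875 in wildtype, 35958 to 36411 in Bmp15-/- and 29069 to 35822 in DM. Of its 9 tested genes, 0 were called in Bmp15-/-. In DM 2 rose (Nr5a2 by 0.36 and Slc38a3 by 1.24) and 3 fell (Foxl2 by 0.78, Inhba by 0.89 and Hsd17b1 by 0.81). Theca and stroma markers, 6 of 9 tested, summed to 564 to 693 in wildtype, 728 to 795 in Bmp15-/- and 972 to 1262 in DM, and surface epithelium markers, 6 of 8 tested, to 726 to 807, 951 to 1190 and 1060 to 1105. Among the defining markers Cyp17a1 and Dcn of theca and stroma and Msln and Krt19 of the surface epithelium were under the filter on low values. Of those tested, Pdgfra rose by 0.92 in Bmp15-/- and 1.57 in DM (limma adjusted p = 0.0197 and 0.000503). In DM Acta2 rose by 2.09 and Col1a1 by 0.54 (limma adjusted p = 0.000117 and 0.0257), while Pdgfrb fell in both mutants (-0.43 and -0.37). Krt8 rose in both mutants (0.62 and 0.55) and Krt18 in DM (1.17), and no tested surface epithelium marker fell. The ranges of endothelial markers (1 of 6 tested; 357 to 363, 326 to 358 and 320 to 353) and immune markers (3 of 7 tested; 256 to 282, 275 to 320 and 274 to 318) were close to each other. The single erythroid marker tested, Alas2, fell in both mutants, and that list summed to 170 to 298 in wildtype, 50.7 to 96.7 in Bmp15-/- and 45.8 to 58.0 in DM. The part of other cells in the changes of Kitl, Myo10, Cdh2 and Daam1 was not tested. With the median of the oocyte markers as a covariate, Kitl changed by -1.52 in Bmp15-/- and -1.29 in DM, both past the threshold. That median was only 5.39 to 6.48 over the arrays, near the filter on low values, and the list holds Tle6. The fit therefore cannot measure the part of oocyte RNA. With that covariate Daam1 still passed in DM (-0.38, limma adjusted p = 0.0427), and Myo10 1422544_at and 1450650_at passed in both mutants. The calls of Cdh2 in DM (-0.34, limma adjusted p = 0.0754) and of Myo10 1450651_at in Bmp15-/- (-0.31, limma adjusted p = 0.0759) were lost, while Cdh2 1449244_at passed in DM (-0.96, limma adjusted p = 0.0057).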

How the data were processed

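Total RNA of cumulus cells (10 ng per sample) was amplified in 2 rounds and hybridised to 9 arrays, per the labels' protocols. The authors deposited log2 values, 1 per probe set and array, and these were used as they stand. For making them the submitters' processing notes name RMA and the affy package, with no version or option given in the sources used here. This method subtracts background, is meant to bring arrays to 1 distribution and combines the probes of a set. It understates changes of low transcripts. The deposited arrays did not share 1 distribution, as their interquartile range was 3.37 to 3.42 in wildtype and 3.16 to 3.34 in the mutants. The number of arrays limits the precision.

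Probe sets were named from the array annotation with symbols updated through RefSeq (GRCm38.p6): 34958 had 1 gene, 932 several and 9211 none, and 34754 of the first were found in RefSeq. A gene was represented by its probe set of highest mean, and tested if at least 3 of 9 arrays exceeded the 40th percentile of their own array. This left 13447 genes and 23735 probe sets, and set 4747 genes aside. One limma fit (limma 3.58.1, R 4.3.3) with genotype as its only term held all 9 arrays with 6 residual degrees of freedom, once over genes and once over probe sets, with 2-sided p-values adjusted by Benjamini-Hochberg. The script was tested on simulated data. Plots used matplotlib 3.10.9. A replicate number was taken to name a pool and was not used to pair samples in the main fit.

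The 9 genes, the 5 pathway lists and the 8 marker lists were chosen with earlier results of these data known. Named beside the members are, per list, up to 4 called genes with the smallest p in DM, and the 3 genes most correlated with each called member. Markers and the targeted genes are named where a result turns on them. Fmn1 and Enah are named only to complete a count of called genes, after their values were seen. Alternatives covered the filter, choice of probe set, normalization, floor, variance model, array weights, replicate block, an oocyte covariate, 2-group fits and leaving out each array.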

Additional observations from a re-analysis of the deposited data

How the results depend on the processing

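Kitl fell in DM, and on 1448117_at in both mutants, under all alternatives, as did Myo10 on 1422544_at and 1450650_at. Counts of called members moved most with the choice of probe set. With the probe set of largest spread, 2, 7 and 1 members were called in Bmp15-/- and DM, each against wildtype, and between the mutants, with 5 called pathway genes in the last. With the mean of all probe sets, 2 and 5 members were called against wildtype. In DM against wildtype, 1 member was called after quantile normalization and 5 with a variance trend. In DM against Bmp15-/-, 2 member probe sets were called with a variance trend and 2 with array weights. With only the 2 groups compared, 0 member probe sets and 0 pathway genes were called there.

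Leaving out 1 array at a time gave 0 to 1, 1 to 3 and 0 to 1 called members in the 3 comparisons, 3 to 7, 11 to 15 and 0 to 3 member probe sets, and 1 to 7, 10 to 19 and 0 to 3 pathway genes. It moved the log2 change of Cdh2 in Bmp15-/- from -0.0904 to 0.0099, that of Gja4 from -0.0931 to 0.0392, and in DM against Bmp15-/- that of Gja1 from -0.036 to 0.0073 and that of Kitl from -0.0522 to 0.6265. By Kitl probe set the latter ran from -0.88 to 0.19 (1415854_at), -0.0522 to 0.6265 (1415855_at), -0.25 to 0.12 (1426152_a_at) and -0.053 to 0.3821 (1448117_at).

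Signs of uncalled values also turned, and 1 called value, Adam17 in DM, went to 0. With the probe set of largest spread, Gja1 changed by -0.31 in Bmp15-/- and -0.81 in DM, Fscn1 by -0.34, -0.96 and -0.62 in the 3 comparisons, and Adam17 in DM by 0 (adjusted p = 1.00). With the mean of all probe sets, Gja1 changed by -0.0864 in DM, Daam1 by 0.12 in Bmp15-/-, Fscn1 by -0.16, -0.35 (called) and -0.19, and Kitl by -0.0377 between the mutants. Quantile normalization gave Gja1 -0.0016 in DM, and array weights gave Kitl 1426152_a_at 0.0067 between the mutants. The causes were not tested beyond which probe sets enter.

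Over all genes, 1219, 3780 and 437 were called. Array weights gave 2350 and the 2-group fit 1894 in Bmp15-/-, and the 2-group fit gave 117 between the mutants. Leaving out arrays gave 444 to 1653 and 108 to 924 in those comparisons. Quantile normalization turned the split of higher against lower calls from 442 and 777 to 587 and 520 in Bmp15-/-, and from 1338 and 2442 to 1738 and 1856 in DM. With the replicate block, 1, 2 and 0 members, 5, 14 and 1 member probe sets and 1084, 3587 and 360 genes were called, and Cdh2 in DM had an adjusted p of 0.052. Same-numbered arrays correlated at -0.08 to 0.26 in their deviations. Arrays of different numbers were not set beside them, so these values cannot show whether the numbers pair samples.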
